A study of Homo sapiens with 14 samples.

Results

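The tumour suppressor p53 is a transcription factor that is held at low level by the ubiquitin ligase MDM2 and its relative MDM4, and that accumulates after DNA damage and other stress. It then raises RNA of genes that stop the cell cycle, repair DNA, alter metabolism or start apoptosis, and also of MDM2 and of the phosphatase PPM1D, which switch the response off again. Many of these genes also have inputs other than p53, and OVCAR-3, the cell line used here, is known to carry a mutated p53.

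The genes described here are 34 known regulators and targets of p53, chosen by name and not by a cutoff on their values, with CDKN1A, BAX and BBC3 left out. Of the 34, 32 were read among the 18398 named genes of the array, each by 1 row, and FDXR and BTG2 were not analysed here. No filter on dim values was applied.

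OVCAR-3 is a long-established line from a human ovarian carcinoma. The arrays cover 4 replicates of parental cells grown without inhibitor (0 µM) and 5 sublines (R1, R3, R5, R6 and R7), each derived on its own for resistance to PHA-533533, an inhibitor of the cell cycle kinase CDK2. Each subline was arrayed once at passage 5 in 4 µM inhibitor, called selected, and once at passage 10 or later in 0 µM, called stable. Inhibitor and passage changed together, so they cannot be told apart. Selected and stable arrays have 5 sublines each. Each subline is 1 resistant population of 1 cell line, and nothing in the labels tells whether the 4 parental replicates grew as separate cultures. The p-values therefore reflect only how far these arrays vary, and part of that variation may be technical.

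Values are log2 signals, and a difference of 1 is a doubling on that scale. The median of all rows lay between 7.54 and 7.68 on the 14 arrays. Markers of serous ovarian carcinoma and epithelium such as PAX8 (11.60 to 12.16) and EPCAM (11.60 to 12.01) were high on all arrays, while ESR1, also on that list, lay at 6.11 to 6.88. The mean of 340 olfactory receptor genes, which serves as a measure of background, ran from 6.06 to 6.71 between arrays. The fibroblast markers LUM (4.83 to 4.98) and DCN (5.15 to 5.54) lay below that range, while COL1A1 (8.84 to 9.39), COL1A2 (7.46 to 8.04), COL3A1 (7.36 to 7.94) and PDGFRB (6.97 to 7.45) lay above it on every array. Of the leukocyte markers PTPRC (5.22 to 5.49) and LYZ (5.41 to 5.84) lay below it, CD3E (6.02 to 6.47) at its level, and CD14 (7.55 to 8.11) and CD68 (7.68 to 8.38) above it. The 4 endothelial markers lay between 6.66 and 7.16. For parental, selected and stable arrays in that order, the mean of the fibroblast list ran 6.89 to 7.18, 6.85 to 7.07 and 6.87 to 7.16, that of the leukocyte list 6.50 to 6.65, 6.56 to 6.70 and 6.43 to 6.67, and that of the endothelial list 6.77 to 7.02, 6.82 to 6.96 and 6.76 to 7.03. By limma, 0 of 6 fibroblast, 0 of 5 leukocyte and 0 of 4 endothelial genes were called in any comparison. SPATA18, EDA2R and ANKRA2, whose means over the arrays were 6.24, 6.56 and 5.78, lay within or below that background range.

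p53 binds pairs of a decamer, the p53 half-site (3 purines, a C, 2 bases that are A or T, a G and 3 pyrimidines), which reads the same on both strands. RefSeq windows (GRCh38.p14) from 250 bases before to 50 bases after an annotated start were given for 25 of the 32 genes. A half-site without mismatch stood in a window of 5 of these 25 genes (20%), DDB2, SESN1, FAS, PLK2 and AEN, against 8.06% of 27305 genes. A pair of half-sites 0 to 13 bases apart, with at most 1 mismatch each and overlapping pairs counted, stood in a window of 5 genes (20%), DDB2, MDM2, CCNG1, SESN1 and FAS, against 6.48%. Of the 6 genes called higher in selected against parental cells, 4 (PERP, ZMAT3, POLH and GDF15) held neither a half-site without mismatch nor a pair in these windows. The windows below were picked for their matches, from DDB2 and SESN1 among the called genes and from MDM2, the main feedback gene of the pathway, which was not called. Capitals mark half-sites with at most 1 mismatch. The DDB2 window is chr11:47214724-47215023 on the plus strand, at 1 of its 2 starts in the table, and 2 of its 3 half-sites have no mismatch. The SESN1 window is chr6:109008939-109009238 on the minus strand, at 1 of 3 starts, and 1 of its 3 half-sites has no mismatch. It holds no pair, and the SESN1 pair counted above lies in the window of another start, not shown. The MDM2 window is chr12:68808767-68809066 on the plus strand, at 1 of 4 starts, and each of its 3 half-sites has 1 mismatch.
DDB2: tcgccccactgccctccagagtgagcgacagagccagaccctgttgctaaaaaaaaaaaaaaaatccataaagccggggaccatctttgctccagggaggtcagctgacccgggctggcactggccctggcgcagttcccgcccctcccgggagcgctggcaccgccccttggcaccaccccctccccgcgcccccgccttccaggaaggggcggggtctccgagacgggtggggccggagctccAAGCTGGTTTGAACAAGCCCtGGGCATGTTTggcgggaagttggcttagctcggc
SESN1: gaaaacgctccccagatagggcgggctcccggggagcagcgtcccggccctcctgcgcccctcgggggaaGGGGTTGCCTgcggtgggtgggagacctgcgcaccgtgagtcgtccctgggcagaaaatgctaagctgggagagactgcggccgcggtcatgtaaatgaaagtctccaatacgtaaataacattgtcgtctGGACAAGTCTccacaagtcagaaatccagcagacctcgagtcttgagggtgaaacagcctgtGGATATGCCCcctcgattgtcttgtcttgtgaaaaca
MDM2: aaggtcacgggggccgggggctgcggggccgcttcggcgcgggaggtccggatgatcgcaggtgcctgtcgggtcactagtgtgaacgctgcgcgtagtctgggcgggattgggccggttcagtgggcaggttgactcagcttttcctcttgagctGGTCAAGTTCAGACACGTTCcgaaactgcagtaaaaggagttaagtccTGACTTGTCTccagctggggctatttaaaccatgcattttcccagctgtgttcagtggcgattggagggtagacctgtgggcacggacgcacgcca
A match is a description of letters only, and binding was not measured here.

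The first comparison asks how resistant cells in the inhibitor differ from the parental cells. Of the 32 genes, 6 rose in selected cells (18.8%), 0 fell and 26 did not pass limma's test, where 5.03% of all 18398 genes were called higher and 1.89% lower. The 6 are DDB2 and POLH, which serve DNA repair, PERP and ZMAT3, linked to apoptosis, SESN1, a stress-induced inhibitor of the growth kinase complex mTORC1, and GDF15, a secreted stress cytokine. In RNA of whole cultures, more cells with a transcript and more of it per cell cannot be told apart. The median difference of the 32 genes was 0.08, beside -0.01 over all genes, and 20 of them (62.5%) were above 0 beside 45.9% of all genes. An unadjusted p under 0.05 was reached by 15 of the 32, beside 20.3% of all genes.

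Among genes of DNA repair and nucleotide supply, DDB2, the damage-recognition subunit that finds ultraviolet lesions, read 8.95, 8.91, 8.64 and 8.94 (replicates 1 to 4) in parental arrays. It read 9.57 (R1), 9.51 (R3), 9.41 (R5), 9.35 (R6) and 9.44 (R7) in selected cells and 9.04 (R1), 9.09 (R3), 8.89 (R5), 8.80 (R6) and 8.76 (R7) in stable cells. Each selected array thus lay above all parental and all stable arrays, while stable and parental arrays overlapped. DDB2 rose by 0.60 (SE 0.084, limma adjusted p = 0.00268) in selected against parental cells and by 0.54 (SE 0.081, adjusted p = 0.0116) against stable cells.

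POLH, the polymerase that copies past ultraviolet lesions, read 9.31, 9.66, 9.34 and 9.53 in parental cells. Its selected arrays read 9.72 (R1), 10.02 (R3), 9.88 (R5), 9.86 (R6) and 9.88 (R7), all above the parental ones, and its stable arrays 9.94 (R1), 9.73 (R3), 9.46 (R5), 9.62 (R6) and 9.42 (R7), which overlapped both groups. POLH rose by 0.41 (SE 0.091, adjusted p = 0.0217) in selected against parental cells. Its parental arrays parted, replicates 1 and 3 low and 2 and 4 high, and it lost the call without parental replicate 1, 3 or 4 or selected R3 or R7, with adjusted p up to 0.0705. In subline R1 POLH was higher in the stable array, at 9.94 against 9.72.

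RRM2B, the ribonucleotide reductase subunit that supplies nucleotides for repair, read 8.47, 8.37, 8.46 and 8.01 in parental, 8.82 (R1), 8.70 (R3), 8.41 (R5), 8.61 (R6) and 8.84 (R7) in selected and 8.39 (R1), 8.46 (R3), 8.05 (R5), 7.85 (R6) and 7.88 (R7) in stable arrays. Selected and parental arrays overlapped in R5 alone, and the difference of 0.35 did not pass (adjusted p = 0.101). XPC, the other lesion sensor of the list, differed by -0.10 (95% interval -0.28 to 0.085).

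**Figure D1:**
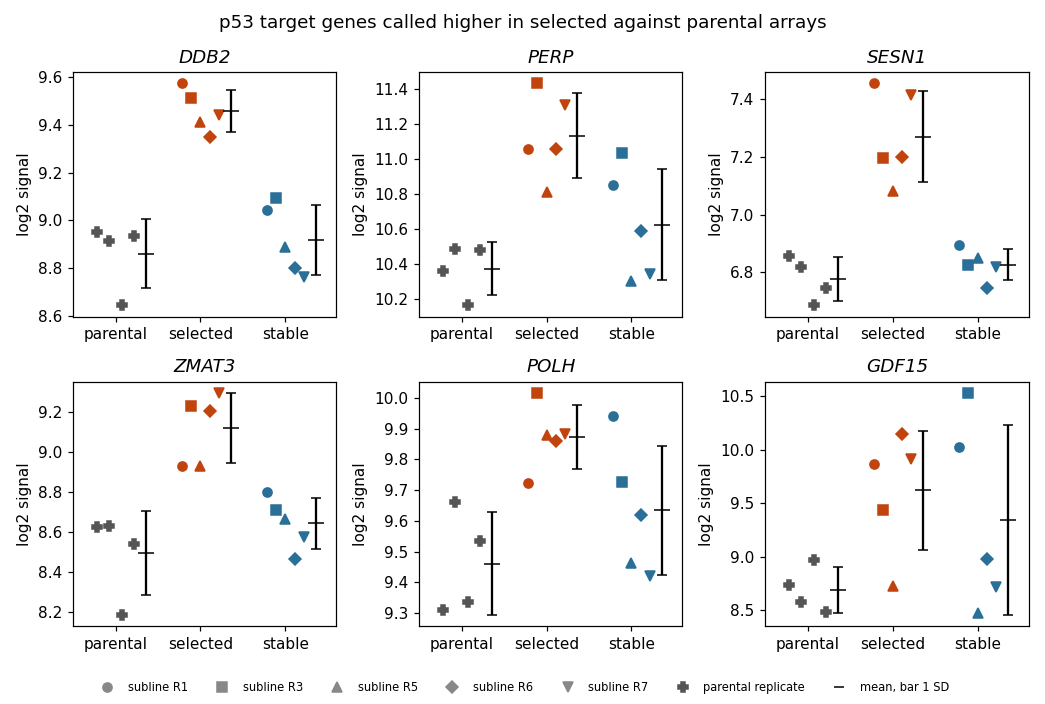
Log2 signal of the 6 called genes (1 panel each) by array, with parental replicates as crosses, sublines by symbol, and mean with 1 SD as bars. DDB2, SESN1 and ZMAT3 show every selected array above every parental and stable array, while GDF15 is also high in the stable arrays of R1 (10.02) and R3 (10.53).

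Of the 9 genes of cell death and mitochondria, PERP and ZMAT3 rose and 7 did not pass. PERP, a membrane protein of cell junctions that promotes apoptosis, read 10.36, 10.49, 10.16 and 10.48 in parental cells. Selected arrays stood at 11.05 (R1), 11.43 (R3), 10.81 (R5), 11.05 (R6) and 11.31 (R7), all above the parental ones, and stable arrays at 10.85 (R1), 11.04 (R3), 10.30 (R5), 10.59 (R6) and 10.34 (R7). In the stable state only R1, R3 and R6 lay above the highest parental array. PERP rose by 0.76 (SE 0.12, adjusted p = 0.00513).

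For ZMAT3, a zinc finger RNA-binding protein that acts in splicing, parental arrays read 8.62, 8.63, 8.18 and 8.54. Selected arrays read 8.93 (R1), 9.23 (R3), 8.93 (R5), 9.21 (R6) and 9.29 (R7), and stable arrays 8.80 (R1), 8.71 (R3), 8.66 (R5), 8.47 (R6) and 8.57 (R7). Every selected value was above every parental and stable value. ZMAT3 rose by 0.62 (SE 0.12, adjusted p = 0.00898) against parental and by 0.47 (SE 0.10, adjusted p = 0.0293) against stable cells.

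The other genes of this role gave no call. PHLDA3, an inhibitor of the kinase AKT, differed by 0.29 (adjusted p = 0.270) and APAF1, the scaffold of the apoptosome, by 0.10 (adjusted p = 0.532). AEN, a nuclease active in apoptosis, read 8.41, 8.34, 8.53 and 8.48 in parental, 8.34 (R1), 8.16 (R3), 8.27 (R5), 8.36 (R6) and 8.09 (R7) in selected and 8.14 (R1), 8.28 (R3), 8.12 (R5), 8.47 (R6) and 8.34 (R7) in stable cells. The groups overlapped, and AEN differed by -0.20 (adjusted p = 0.181). The difference for TP53I3, an oxidoreductase, was -0.16 (adjusted p = 0.369). TRIAP1, an inhibitor of apoptosis, was the flattest of the 32 genes, between 8.54 and 8.67 over all 14 arrays. SPATA18, a factor of mitochondrial quality control, differed by -0.057, within its background-level signal, and TP53INP1, which acts in autophagy and cell death, by -0.042 with a spread of 7.38 to 8.79 over the arrays.

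Among the metabolic and redox genes 1 of 5 rose. SESN1 read 6.86, 6.82, 6.68 and 6.75 in parental cells, 7.46 (R1), 7.20 (R3), 7.08 (R5), 7.20 (R6) and 7.42 (R7) in selected cells and 6.90 (R1), 6.82 (R3), 6.85 (R5), 6.75 (R6) and 6.82 (R7) in stable cells. Every selected array was above every other array, and the stable arrays lay within the parental range in 4 sublines and just above it in R1. SESN1 rose by 0.49 (SE 0.090, adjusted p = 0.00851) against parental and by 0.44 (SE 0.081, adjusted p = 0.0228) against stable cells. Its parental and stable values lay close to the highest olfactory receptor mean, 6.71, so they are near background.

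SESN2, its close relative, read 7.63, 7.80, 7.32 and 7.76 in parental arrays, 8.13 (R1), 7.83 (R3), 7.39 (R5), 7.40 (R6) and 7.64 (R7) in selected arrays and 8.21 (R1), 8.49 (R3), 7.24 (R5), 7.32 (R6) and 7.18 (R7) in stable arrays. It lay above the parental range in R1 and R3 in both states, by little in selected R3, and within or below it in R5, R6 and R7. Its difference of 0.050 from parental cells had a 95% interval of -0.29 to 0.39, and whether SESN1 and SESN2 differ in response was not tested. TIGAR, a phosphatase that lowers glycolysis, differed by 0.33 (adjusted p = 0.115) and ACER2, a ceramidase of the Golgi, by 0.25 (adjusted p = 0.103). CMBL, a hydrolase, differed by 0.026 (95% interval -0.14 to 0.20). It read 6.64 to 6.93 over the arrays, near the highest olfactory receptor mean of 6.71.

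GDF15 had the largest difference and the widest spread of the 32 genes. It read 8.73, 8.58, 8.97 and 8.48 in parental cells, 9.86 (R1), 9.44 (R3), 8.73 (R5), 10.15 (R6) and 9.91 (R7) in selected cells and 10.02 (R1), 10.53 (R3), 8.47 (R5), 8.98 (R6) and 8.71 (R7) in stable cells. In selected cells R5 alone lay within the parental range, and in stable cells R1 and R3 lay over 1 log2 unit above it while R5, R6 and R7 lay near it. GDF15 rose by 0.93 (SE 0.24, adjusted p = 0.0382) in selected cells. The call was lost in 10 of 18 alternative analyses, among them without any one of the 4 parental arrays and without selected R1, R3, R6 or R7, with adjusted p up to 0.180. GDF15 and SESN2 are also known targets of the stress factor ATF4. Of the remaining unclassified genes FBXO22, a ubiquitin ligase adaptor, differed by -0.049 and ANKRA2, an ankyrin repeat protein, by -0.13, neither of which passed.

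All 4 feedback genes missed the threshold, 3 of them with positive differences. MDM2 read 10.88, 10.91, 10.86 and 10.78 in parental, 11.61 (R1), 11.06 (R3), 11.04 (R5), 11.13 (R6) and 11.33 (R7) in selected and 11.07 (R1), 11.02 (R3), 10.60 (R5), 10.94 (R6) and 10.67 (R7) in stable cells. Each selected array was above each parental array, and the difference of 0.38 (SE 0.11) missed the threshold (adjusted p = 0.0678). CCNG1, cyclin G1, which recruits a phosphatase to MDM2, read 11.61, 11.65, 11.65 and 11.49 in parental, 12.25 (R1), 11.95 (R3), 11.66 (R5), 11.92 (R6) and 12.06 (R7) in selected and 11.91 (R1), 11.66 (R3), 11.18 (R5), 11.20 (R6) and 11.02 (R7) in stable cells.

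For CCNG1 too all selected arrays lay above all parental ones, with R5 at 11.66 just above the highest parental value of 11.65, while stable R5, R6 and R7 lay below all of these. Its difference from parental cells was 0.37 (SE 0.10, adjusted p = 0.0578). PPM1D read 8.86, 8.95, 8.49 and 8.80 in parental, 9.30 (R1), 9.37 (R3), 9.07 (R5), 8.88 (R6) and 9.10 (R7) in selected and 8.90 (R1), 8.91 (R3), 8.70 (R5), 8.56 (R6) and 8.67 (R7) in stable cells. Its selected R6 array lay within the parental range, and the difference was 0.37 (SE 0.12, adjusted p = 0.0843). MDM4, which binds p53 and blocks it, read 8.93, 9.24, 8.57 and 8.97 in parental, 9.34 (R1), 8.73 (R3), 8.24 (R5), 8.54 (R6) and 8.88 (R7) in selected and 9.14 (R1), 9.09 (R3), 8.60 (R5), 8.69 (R6) and 8.47 (R7) in stable cells. R1 was the highest subline in both states, and MDM4 differed by -0.18 (95% interval -0.61 to 0.24). In all, 7 of the 32 genes, the called ones other than GDF15 with MDM2 and CCNG1, had every selected array above every parental array (6.81% of all genes), and 1, PLK2, every selected array below (2.96%).

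None of the 4 death receptors was called. FAS differed by 0.25 (adjusted p = 0.510), with its highest value in the stable array of R3 (9.66). TNFRSF10A and TNFRSF10B, receptors of the death ligand TRAIL, differed by -0.013 (95% interval -0.19 to 0.16) and 0.009 (-0.27 to 0.28). For EDA2R, a receptor of ectodysplasin, the difference was -0.037 at background-level signal.

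Growth arrest and stress kinase genes gave no call either. PLK2, a polo-like kinase induced by stress, read 12.30, 12.44, 12.21 and 12.29 in parental, 12.16 (R1), 11.86 (R3), 11.83 (R5), 11.73 (R6) and 12.15 (R7) in selected and 11.97 (R1), 12.57 (R3), 11.87 (R5), 11.85 (R6) and 11.98 (R7) in stable cells. All selected arrays lay below all parental ones, and the difference of -0.36 (SE 0.10) missed the threshold (adjusted p = 0.0543). Its relative PLK3 differed by -0.22 (adjusted p = 0.550). SERTAD1, a cofactor of CDK4 and E2F, read 9.22, 9.11, 9.06 and 9.26 in parental, 9.76 (R1), 9.27 (R3), 9.24 (R5), 9.47 (R6) and 9.42 (R7) in selected and 9.10 (R1), 9.28 (R3), 8.28 (R5), 8.91 (R6) and 8.66 (R7) in stable cells, with a difference of 0.27 from parental cells (adjusted p = 0.167).

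**Figure D2:**
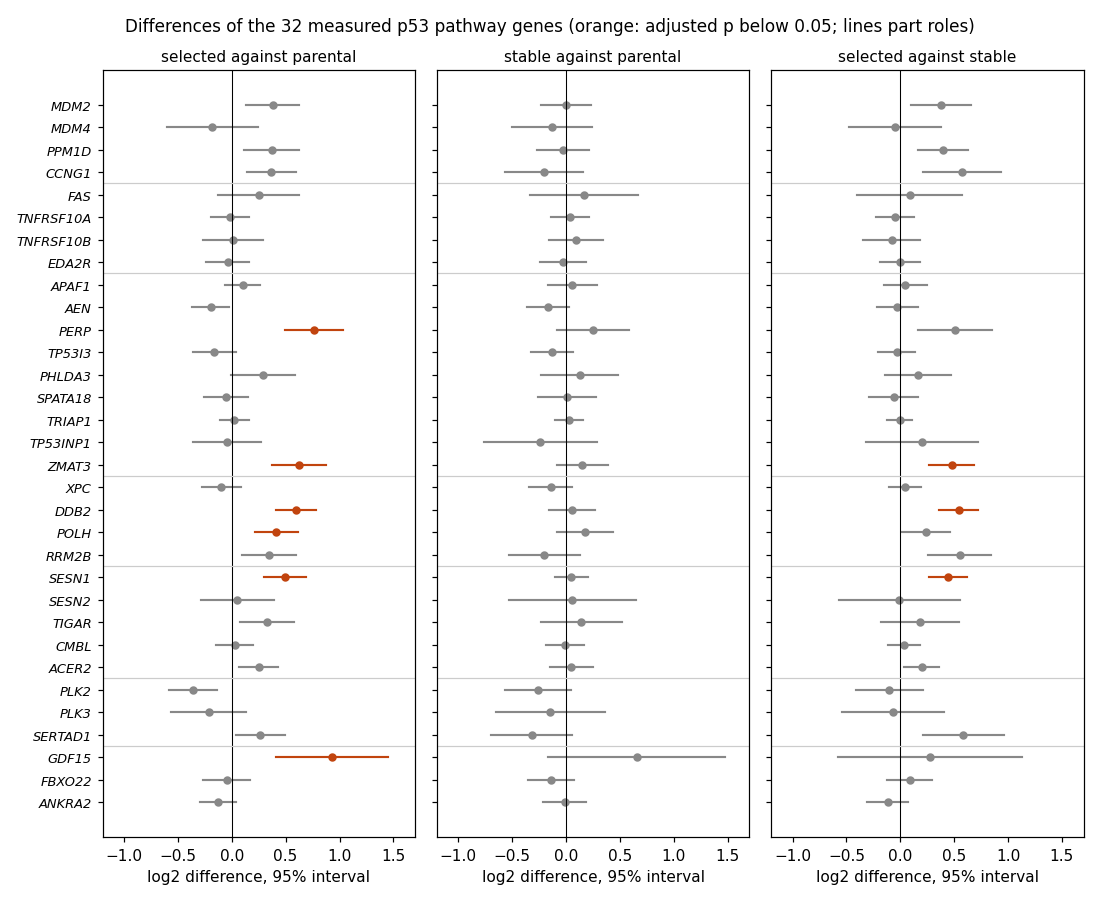
Log2 differences of the 32 genes (rows, grouped by role) with 95% intervals in each of the 3 comparisons, in orange where the adjusted p is below 0.05. Called genes number 6, 0 and 3 from left to right, and the middle panel has every interval across 0.

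The second comparison asks what remained after growth without inhibitor. Of the 32 genes 0 were called by limma for stable against parental cells, and 0 had an unadjusted p under 0.05, where 1 of all 18398 genes (0.00544%) was called and 6.09% had an unadjusted p under 0.05. The median difference of the 32 genes was 0.003, 17 of them (53.1%) were above 0 beside 48.4% of all genes, and 0 had every stable array above or every stable array below all parental arrays (0.826% and 1.42% of all genes). DDB2 differed by 0.057 (95% interval -0.16 to 0.27), SESN1 by 0.050 (-0.10 to 0.20), ZMAT3 by 0.15 (-0.087 to 0.39) and MDM2 by 0.00 (-0.23 to 0.23). For PERP the difference was 0.25 (-0.082 to 0.58), for POLH 0.17 (-0.088 to 0.43) and for GDF15 0.66 (-0.17 to 1.48). The smallest p-values among the 32 were those of AEN at -0.17 (adjusted p = 0.863), PLK2 at -0.26 (adjusted p = 0.876) and SERTAD1 at -0.32 (adjusted p = 0.884). This comparison shares its 4 parental arrays with the first.

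The remaining comparison sets each subline in inhibitor against the same subline after withdrawal. Without the pairing, DDB2, SESN1 and ZMAT3 were higher in selected cells, 3 of 32 genes, 0 were lower and 29 did not pass, where 1.54% of all genes were called higher and 0.614% lower. With subline as a block 8 of 32 were higher and 0 lower, where 3.61% and 1.31% of all genes were. These were the same 3 genes with PPM1D, CCNG1, PERP, RRM2B and SERTAD1. The median difference of the 32 genes was 0.09, beside 0.003 over all genes, and 20 of them were above 0 (50.9% of all genes). In the unpaired fit 11 reached an unadjusted p under 0.05, beside 15.3% of all genes. DDB2, SESN1 and ZMAT3 were also the ones with every selected array above every stable array (2.83% of all genes), and 0 had every selected array below (1.33%).

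Among these 8 genes PPM1D differed most evenly over the sublines, by 0.40 (R1), 0.46 (R3), 0.38 (R5), 0.32 (R6) and 0.43 (R7), a mean of 0.40 (adjusted p = 0.0800, with the block adjusted p = 0.0192). DDB2 differed by 0.53 (R1), 0.42 (R3), 0.52 (R5), 0.55 (R6) and 0.68 (R7) and kept its call with the block (adjusted p = 0.00898). The SESN1 differences were 0.56 (R1), 0.37 (R3), 0.23 (R5), 0.46 (R6) and 0.60 (R7) (adjusted p with the block = 0.0217), and those of ZMAT3 0.13 (R1), 0.52 (R3), 0.26 (R5), 0.74 (R6) and 0.72 (R7) (adjusted p with the block = 0.0373). ZMAT3 thus had its widest gaps in R6 and R7 and its narrowest in R1.

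CCNG1 and RRM2B had their widest gaps in R7. The differences were 0.34 (R1), 0.29 (R3), 0.49 (R5), 0.72 (R6) and 1.03 (R7) for CCNG1, with a mean of 0.57 (adjusted p = 0.107, with the block adjusted p = 0.0299). Those of RRM2B were 0.43 (R1), 0.24 (R3), 0.37 (R5), 0.75 (R6) and 0.96 (R7), with a mean of 0.55 (adjusted p = 0.0586, with the block adjusted p = 0.0309). For both genes the stable arrays of R5, R6 and R7 were lower than those of R1 and R3.

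PERP also had its widest gap in R7, with differences of 0.20 (R1), 0.40 (R3), 0.51 (R5), 0.47 (R6) and 0.97 (R7) (mean 0.51, adjusted p = 0.129, with the block adjusted p = 0.0338). SERTAD1 was higher in the selected array of 4 sublines and level in R3, with 0.66 (R1), -0.010 (R3), 0.96 (R5), 0.55 (R6) and 0.76 (R7) (mean 0.58, adjusted p = 0.109, with the block adjusted p = 0.0373). MDM2, with 0.55 (R1), 0.045 (R3), 0.44 (R5), 0.20 (R6) and 0.66 (R7) (mean 0.38), did not pass with the block (adjusted p = 0.0628), nor did ACER2 at 0.20 (adjusted p = 0.123). Of the 32 genes 9 were higher in the selected array of all 5 sublines (28.1%), the block-called ones other than SERTAD1 with MDM2 and ACER2, and 0 were lower in all 5, where 11.8% and 7.35% of all genes were.

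**Figure D3:**
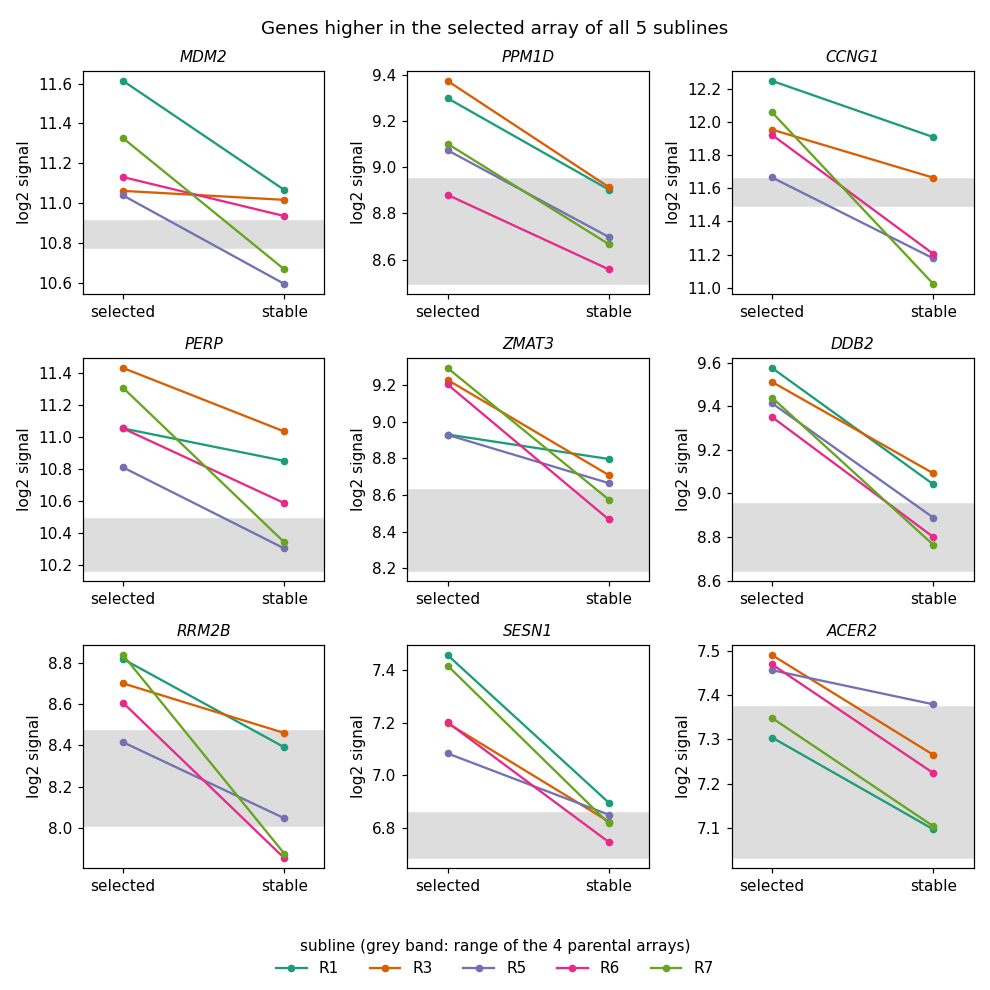
Log2 signal of the 9 genes that were higher in the selected than in the stable array of all 5 sublines, with 1 line per subline and the parental range as a grey band. For SESN1, ZMAT3, DDB2, PERP, MDM2 and CCNG1 all selected arrays lie above the band, and for CCNG1 the stable arrays of R5, R6 and R7 lie below it.

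The background measure moved with this comparison. In each of the 5 sublines the olfactory receptor mean was lower under selection, by 0.12 (R1), 0.14 (R3), 0.11 (R5), 0.035 (R6) and 0.38 (R7). R7, with the widest background gap, also had the largest median difference of the 32 genes, 0.39, with 25 of them higher (78.1%). The medians were 0.15 (R1), 0.063 (R3), 0.13 (R5) and 0.075 (R6), with 62.5%, 56.2%, 65.6% and 59.4% of the 32 higher. Over all genes the medians were 0.024 (R1), 0.056 (R3), 0.017 (R5), -0.010 (R6) and -0.019 (R7). The shares of all genes higher were 56% (R1), 60.1% (R3), 54.4% (R5), 47.7% (R6) and 47.9% (R7). In R3 the share of the 32 was thus below that of all genes. In R6, where background differed least, the 8 genes called with the block differed by 0.32 (PPM1D) to 0.75 (RRM2B), and MDM2 by 0.20. Since the 8 were called on pairs that include R6, positive gaps there follow in part from that choice, and they are given as a description. When that mean entered the fit as a covariate, without the block, DDB2 was at 0.46 (adjusted p = 0.00545), SESN1 at 0.39 (adjusted p = 0.0216), ZMAT3 at 0.45 (adjusted p = 0.0396) and RRM2B at 0.41 (adjusted p = 0.0480). In that fit 529 of all genes passed, against 397 without the covariate. With both the covariate and the block 0 of the 32 and 0 of all 18398 genes passed, DDB2 being at 0.47 (adjusted p = 0.470). Leaving out both arrays of a subline changed the count: without R5 or without R7, 0 of the 32 passed in the unpaired fit. Of all 18398 genes 65 passed without R5 and 0 without R7, against 397 with all sublines. DDB2 was at 0.51 (adjusted p = 0.0914) without R7. With the block and without R7 DDB2 (adjusted p = 0.0352) and PPM1D (adjusted p = 0.0495) passed. Against 8 genes with all sublines, the blocked count was 2 without R5, 1 without R6 and 2 without R7. Over all genes the blocked count was 188 without R5, 179 without R6 and 159 without R7, against 906.

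The spread over arrays was set side by side for the groups, with no test. The median SD over the 32 genes was 0.202 in stable, 0.174 in selected and 0.152 in parental arrays, beside 0.157, 0.144 and 0.132 over all genes. The stable array of R3 was the highest of the 5 for 13 genes and that of R1 for 11 (40.6% and 34.4% of the 32, beside 19.2% and 27.7% of all genes). The lowest stable array was R6 for 9 genes, R7 for 9 and R5 for 7, where it was so for 16.6%, 17.8% and 11.6% of all genes, and R1 for 5 and R3 for 2 (31.6% and 22.4% of all genes). Stable R3 held the highest value of all 14 arrays for GDF15 (10.53), FAS (9.66), SESN2 (8.49), PLK3 (8.46), TP53INP1 (8.79), TIGAR (8.07) and PLK2 (12.57). The olfactory receptor mean of stable R1 (6.18) and R3 (6.39) was also lower than that of stable R5 (6.60), R6 (6.63) and R7 (6.70), and its part in this order was not tested.

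Since these 7 genes are listed for their high stable R3 value, each is lower in selected R3 by that choice, and the gaps are given as a description. GDF15 was lower by 1.09 in selected than in stable R3 but higher by 1.17 in R6 and 1.20 in R7. PLK3 was lower by 1.07 in R3, FAS by 0.72, PLK2 by 0.71, SESN2 by 0.66, TIGAR by 0.44 and TP53INP1 by 0.18. FAS was higher by 1.01 in R1, the widest positive gap of that subline, and TP53INP1 by 0.97 in R6. A test across sublines, with growth condition as a covariate, called 0 of the 32 genes by limma's F test, where 0.12% of all genes were called. An unadjusted p under 0.05 was reached by 7 of the 32, beside 15.8% of all genes, the lowest being those of SESN2 (adjusted p = 0.151), PPM1D (adjusted p = 0.211) and MDM4 (adjusted p = 0.222).

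**Figure D4:**
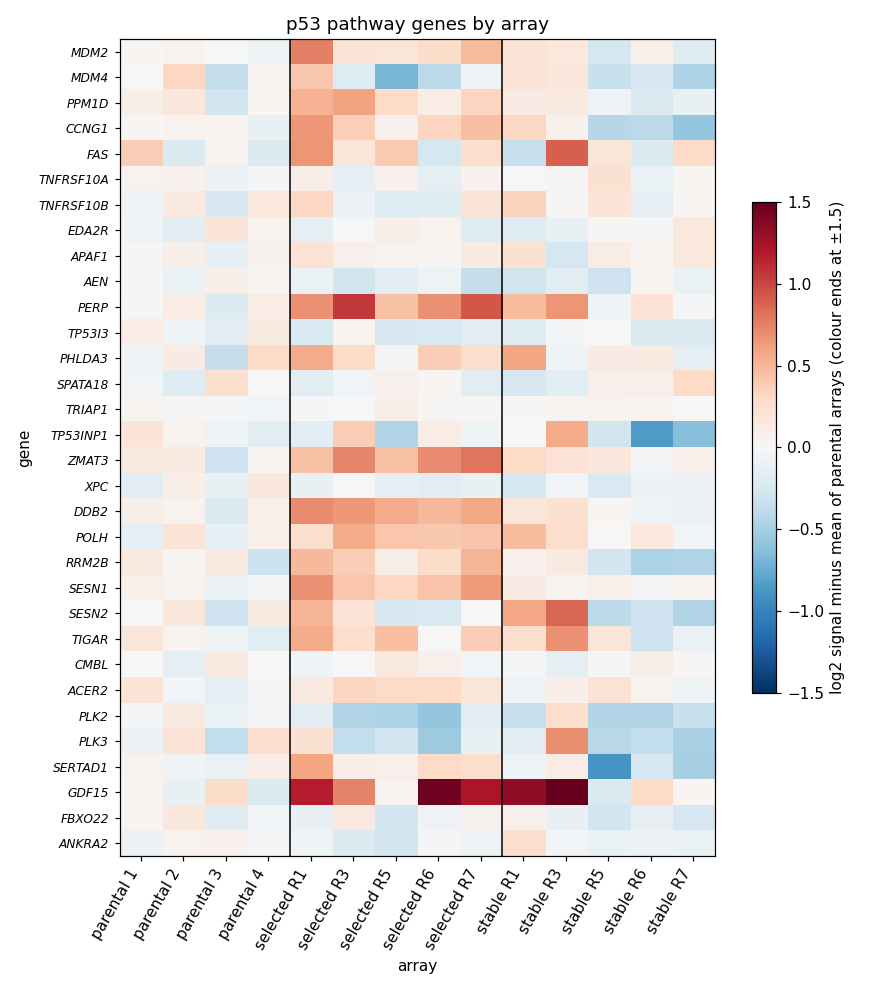
Log2 signal of the 32 genes (rows) on the 14 arrays (columns) minus the mean of the parental arrays, with colour ending at 1.5 in either direction. DDB2, PERP, ZMAT3 and SESN1 are among the genes above 0 in all selected arrays, and GDF15 reaches 1.84 in stable R3.

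Other genes of the pathway were read from 2 further lists, which were written with earlier results of these data known. Of 21 measured genes that act on p53 or sense damage, 2 rose in selected against parental cells (9.52%) and 0 fell. Of all genes 5.03% rose and 1.89% fell. The median difference of the 21 was 0.15, beside -0.01 over all genes. The 2 that rose were HIPK2, a kinase of p53, by 0.38 (adjusted p = 0.0432) and PPP1R13B, a cofactor of p53 in apoptosis, by 0.43 (adjusted p = 0.0497). COP1, a ubiquitin ligase of p53, at 0.48, did not pass (adjusted p = 0.0503). For selected against stable cells 0 of 21 passed by limma, where 1.54% of all genes were called higher and 0.614% lower. An unadjusted p under 0.05 was reached by 7, beside 15.3% of all genes. ATR, the replication stress kinase, was at -0.28 (adjusted p = 0.0644). For stable against parental cells 0 of 21 passed too (2 with an unadjusted p under 0.05, beside 6.09% of all genes).

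Of 39 further genes known as p53 targets, 4 rose (10.3%) and 3 fell in selected against parental cells. Of all genes 5.03% rose and 1.89% fell. FUCA1, a lysosomal fucosidase, rose by 0.80 (adjusted p = 0.00148), REV3L, the catalytic subunit of a lesion-bypass polymerase, by 0.71 (adjusted p = 0.00365), TRIM22, an antiviral protein also induced by interferon, by 0.53 (adjusted p = 0.00750) and KITLG, the ligand of KIT, by 0.58 (adjusted p = 0.0482). CYFIP2 fell (-0.59, adjusted p = 0.0128), as did PLTP (-0.50, adjusted p = 0.00615), a lipid transfer protein, and CES2 (-0.34, adjusted p = 0.0138), a carboxylesterase. The list therefore held calls in both directions, with a median difference of 0.06. KITLG read 5.529 to 5.616 in parental and 5.428 to 5.658 in stable arrays, below the olfactory receptor range of 6.06 to 6.71. TRIM22 read 6.135 to 6.531 in parental and 6.180 to 6.549 in stable arrays, within that range. Both genes are thus at or below background in these groups.

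FUCA1 read 8.16, 8.06, 7.91 and 7.92 in parental, 8.88 (R1), 8.78 (R3), 8.57 (R5), 8.78 (R6) and 9.06 (R7) in selected and 8.05 (R1), 8.29 (R3), 8.04 (R5), 7.86 (R6) and 8.04 (R7) in stable cells, so that selected arrays stood above all others as for DDB2. Against stable cells 4 of the 39 were higher (10.3%) and 0 lower, where 1.54% and 0.614% of all genes were. The 4 were FUCA1 at 0.76 (adjusted p = 0.00900), REV3L at 0.60 (adjusted p = 0.0292), TRIM22 at 0.41 (adjusted p = 0.0331) and E2F7, a repressor of cell cycle genes, at 0.45 (adjusted p = 0.0293). With the block KITLG (adjusted p = 0.0468) and DRAM1, a lysosomal protein of autophagy (adjusted p = 0.0373), passed as well. That made 6 of the 39 higher, beside 3.61% of all genes. Stable against parental cells gave 0 of 39 by limma (6 with an unadjusted p under 0.05, beside 6.09% of all genes). CYFIP2 was at -0.69 (adjusted p = 0.251). Its stable arrays (7.701 to 8.548) all lay below its parental arrays (8.755 to 8.994), as was so for 1.42% of all genes.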

How the data were processed

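Total RNA from subconfluent cultures was hybridised to Affymetrix whole-transcript gene arrays, 14 in all (4 parental, 5 selected, 5 stable). The deposited values, 32295 rows of 4.34 to 14.9, were used as log2 signals: the range and array medians fit a log2 scale, while the authors' background correction and normalization were not found in the labels or file header. The array number limits precision. No further normalization was applied.

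GEO's platform annotation, which can be old, named 1 gene for 19148 rows, several for 1376 (not used) and none for 11771. For genes with more than 1 row (633) the row of highest mean was kept, giving 18398 genes, and 19118 of the named rows had their gene in the RefSeq table (GRCh38.p14). The most alike arrays correlated at 0.9954 and shared at most 0.0124% of values exactly. Comparisons used limma 3.58.1 (R 4.3.3) with lmFit and eBayes on the arrays of the groups compared, two-sided, and Benjamini-Hochberg adjustment over the 18398 genes with a threshold of 0.05. Sublines were compared by limma's F test on their 10 arrays, with a term for growth condition.

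Selected and stable arrays with 1 number come from 1 subline, which pairs them. Deviations from the group means of the 2 arrays of a subline correlated at 0.64 (R1), 0.05 (R3), 0.37 (R5), 0.55 (R6) and -0.47 (R7). The unpaired fit is the main one and the block on subline is given beside it. Parental numbers pair nothing. In simulated data with 200 of 18398 genes changed, the test recovered 69% of differences of 0.5 and 90% of 1 for selected against parental. It recovered 66% and 93% for stable against parental, and 71% and 92% for selected against stable. Of genes simulated with an SD of 1 between sublines 89% were recovered. Noise was drawn independently for each gene and array, with the same SD in all groups. Signal shifts shared across an array were thus not simulated, and recovery in the measured data may differ.

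All 34 genes were accounted for. Array values are given for genes called in any fit or with the block and for a few of smallest p. Genes of the other lists are named where called or of smallest p, with values by array for FUCA1 alone. The array values of MDM2 were added after they were seen. The genes and lists were chosen with earlier results of these data known. Promoter windows were searched for the p53 half-site, and values for proteins were not used here. Alternatives were other normalizations, a filter on dim genes (40th percentile), other row rules, variance models, array weights, all arrays in 1 fit, the olfactory receptor mean as a covariate, the block and leaving out arrays.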

Additional observations from a re-analysis of the deposited data

Results flagged for a closer look

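Of 96 groups of 4 or 5 arrays (32 genes, 3 groups), 4 held an array far from the rest by Dixon's test, which flags about 1 group in 20 by chance. DDB2 was lowest in parental replicate 3, at 8.64, while the other parental arrays lay between 8.91 and 8.95. PLK2 was highest in stable R3, at 12.57, with the others between 11.85 and 11.98. PLK3 was also highest in stable R3, at 8.46, with the others between 7.27 and 7.60. ANKRA2 was highest in stable R1, at 6.10, with the others between 5.73 and 5.79, all near or below the olfactory receptor background.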

How the results depend on the processing

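Selected against parental, 10 of the 32 genes passed instead of 6 once the olfactory receptor mean was a covariate (MDM2, PPM1D, CCNG1 and, lower, PLK2 added), and of the 60 other pathway genes 15 instead of 9. In that fit 2319 of all genes passed instead of 1273. Leaving out 1 array, the count of other pathway genes ran from 5 (without parental replicate 4) to 12. The count of all genes ran from 517 (without parental replicate 4) to 1343 (without selected R6). PERP, ZMAT3 and DDB2 passed in all 18 alternatives, and SESN1 in the 17 it entered, since the filter on dim genes removed it. Stable against parental, array weights called 2 other pathway genes instead of 0, and DDB2 turned to -0.058 with array weights and to -0.016 without parental replicate 3 (other leave-outs up to 0.095), not called in any. Array weights called 286 of all genes in this comparison, where the main fit called 1.

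Selected against stable, the 3 calls became 1 with median centring, 10 with array weights, 6 with all 14 arrays in 1 fit, 8 with the replicate block and 0 with the block and the olfactory receptor covariate together. In the same order, the 397 calls over all genes became 81, 1480, 680, 906 and 0. Among the 32 genes, leaving out 1 array or 1 subline gave 0 to 6 (0 without R5 or R7), and with the block 1 (without R6) to 9 (without R3), with 6 without R1. Over all genes 65 passed without R5 and 0 without R7, and with the block 179 without R6, 688 without R3 and 546 without R1. DDB2 passed in 28 of 31 alternatives, SESN1 in 16 of 30 and ZMAT3 in 15 of 31. The 4 other pathway genes became 1 with median centring, 10 with array weights and 0 with block and covariate. Leave-outs gave 0 (without R7) to 5, and with the block 1 to 5 (1 without R5 or R7, 2 without R1 or R6). Between sublines, trended and robust variance called 1 of the 32 genes (SESN2) and array weights 3 (MDM4, CCNG1, SESN2), and 4 other pathway genes, instead of 0. Over all genes trended and robust variance called 584 and array weights 1389, instead of 22. The cause of these shifts was not tested.

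Single genes were also compared with each alternative. Where the direction was kept, 52 comparisons gained a call and 48 lost one. It was reversed in 2, those of DDB2 for stable against parental given above. Signals near background, as for SPATA18, EDA2R, ANKRA2 and CMBL and for SESN1, KITLG and TRIM22 in parental and stable cells, limit what can be seen. Arrays number at most 5 a group.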
